A study of Mus musculus with 9 samples.

Results

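miR-210 was followed in the milk fat of mouse dams through both mature products of its hairpin, mmu-miR-210-3p and mmu-miR-210-5p, which were taken by name and are 2 of the 1915 mature names in the count table. The small RNA came from washed milk fat of 9 dams of the outbred ICR (CD1) stock, each nursing a first litter and milked on lactation day 10. For the 4 high-fat dams 60% of dietary energy was fat, at 5.24 kcal per g, and for the 5 control dams 10%, at 3.85 kcal per g. Both diets held 7% of energy as sucrose, and each was fed from 4 weeks of age, 4 weeks before mating, until the milk was taken. Each library is 1 dam. Before mating, dams of the same diet were caged in pairs, but the pairs are not known here. Because milk fat is a secretion, it holds cytoplasm carried out with the fat globules rather than whole gland tissue.

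miR-210 is the miRNA most often tied to low oxygen. When oxygen falls, the transcription factor HIF-1 is stabilised and raises transcription of the gene in many cell types, and the 3p arm then represses mitochondrial proteins such as the iron-sulfur cluster scaffold Iscu. In human breast tumours its level is used as a marker of hypoxia. The 3p arm is the guide that Argonaute retains, and the 5p arm is the passenger, which is mostly degraded.

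The hairpin and its arms are shown because every value below is a count of one of these stretches. The hairpin is given first with the 5p and 3p arms in capitals, and each arm is then given with its seed, bases 2 to 8, in capitals (RefSeq, GRCm38.p6, minus strand).
mir-210 hairpin: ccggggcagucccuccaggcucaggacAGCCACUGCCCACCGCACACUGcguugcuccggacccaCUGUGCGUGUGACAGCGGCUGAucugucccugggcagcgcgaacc
mmu-miR-210-3p: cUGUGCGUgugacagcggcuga
mmu-miR-210-5p: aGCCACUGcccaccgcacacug

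The gene Mir210 lies on chromosome 7 at 141221384 to 141221493, with the 3p arm at 141221407 to 141221428 and the 5p arm at 141221445 to 141221466. No other gene of GENCODE M21 overlaps it. Rassf7 ends 2726 bases away on one side, and Phrf1 starts 7291 bases away on the other. Of 1679 mature mouse names in the RefSeq table, 0 others carry the seed of the 3p arm and 0 others that of the 5p arm. No seed family was therefore found among them. The longest stretch shared with another of these RefSeq names was 9 bases for the 3p arm and 10 bases for the 5p arm. The count table holds 1915 mature names, and names outside the RefSeq table were not searched. Among 141767 annotated mouse transcripts, no gene besides Mir210 holds a 16-base word of the 3p arm, and 1 gene, Fam166b, holds such a word of the 5p arm. Each arm has 1 row in the table, so no choice between rows was needed for it.

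Library totals ran from 1905838 to 3897109 counts in high-fat libraries and from 837817 to 2750482 in control libraries. The secretory epithelium markers, 6 of 6 found in every library and led by miR-148a-3p, made up 22.7% to 25.0% of high-fat and 21.1% to 25.2% of control counts. The 6 leukocyte markers summed to 1.22%, 0.0280%, 0.351% and 0.0566% of high-fat libraries 1 to 4, against 0.0617% to 0.103% of control libraries, and all 6 were found in every library. The 4 erythrocyte markers summed to 0.00201% to 0.0650% of high-fat libraries, highest in library 3, and to 0.00227% to 0.0158% of control libraries. The comparisons of miR-210 between diets are also given without high-fat libraries 1 and 3.

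mmu-miR-210-3p was a mid-level miRNA of milk fat, and its mean was higher in high-fat than in control milk by an amount that did not pass the test. It had 731, 1277, 512 and 609 counts in high-fat libraries 1 to 4, against 431, 361, 572, 449 and 166 counts in control libraries 1 to 5. Scaled to counts per 1000000 of the library total (CPM), these were 313, 328, 253 and 320 CPM in high-fat libraries, against 256, 290, 208, 281 and 198 CPM in control libraries. In CPM, high-fat libraries 1, 2 and 4 lay above every control library. High-fat library 3 lay among the controls, below control libraries 1, 2 and 4. At least 3 of 4 high-fat libraries beyond all controls on the same side was seen for 58 of the 312 names tested, or 18.6%. On the scaled library sizes of the limma-voom test below, high-fat library 1 lay below control library 2. They stood 0.10 and 0.14 log2 CPM above the mean of miR-210-3p over the 9 libraries. The lowest values were those of control libraries 5 and 3, the shallowest and the deepest of that diet.

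Counting error alone was small beside these gaps in part of the libraries only. The 95% Wilson interval was 310 to 346 CPM in high-fat library 2, the highest, and 170 to 231 CPM in control library 5, the lowest. The interval of control library 2, 262 to 322 CPM, overlapped those of high-fat libraries 1, 2 and 4, the libraries above every control. That of high-fat library 3, 232 to 276 CPM, overlapped the intervals of control libraries 1, 2 and 4, the first of which ran from 233 to 281 CPM. High-fat library 3, high in erythrocyte and leukocyte markers, was the lowest of its diet in miR-210-3p, and high-fat library 1, the highest in leukocyte markers, was not. The part of blood cell RNA in these values was not tested.

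The mean level was 303 ± 34.0 CPM in high-fat milk (SD, n = 4) and 247 ± 41.8 CPM in control milk (SD, n = 5). limma-voom, fitted over all 312 names that passed the filter on low counts, gave a log2 fold change of 0.31 ± 0.17 (SE, high-fat over control) with an adjusted p of 0.621. The 95% interval of that fold change ran from -0.07 to 0.69. An exact two-sided permutation test of the CPM values gave p = 0.0794 (n = 4 and 5), and 0.238 adjusted over the 3 such tests made on the arms. The smallest p that this design allows is 0.0159. In bulk milk fat, a change in the cells contributing the miRNA and a change in its level per cell cannot be told apart.

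**Figure D1:**
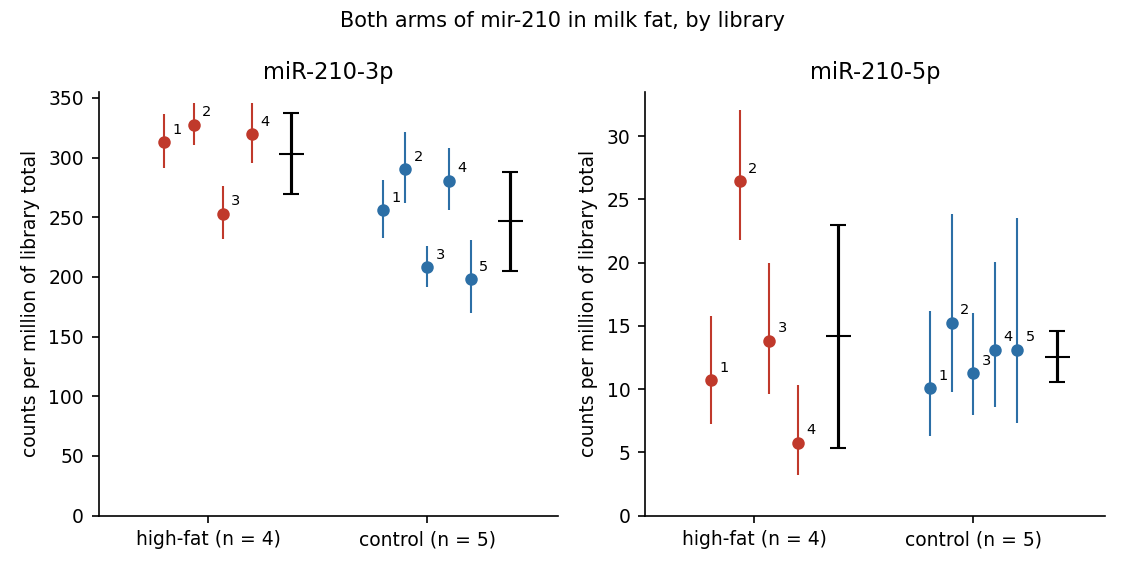
Level of miR-210-3p (left panel) and miR-210-5p (right panel) in CPM, by library, high-fat left and control right. Numbers are library numbers, thin bars are 95% Wilson intervals for counting error, and black bars are the mean ± SD; for miR-210-3p 3 of 4 high-fat libraries lie above all 5 control libraries, and for miR-210-5p high-fat library 2 stands at 26.4 CPM.

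The size of the difference depended on which libraries were kept. Without high-fat library 2, the deepest, the log2 fold change of miR-210-3p was 0.17 ± 0.19, with a limma-voom adjusted p of 0.712. The CPM means were then 295 in high-fat and 247 in control milk. Scaling factors were estimated anew for the libraries kept, so the fold change does not follow from the CPM means alone. Without high-fat library 3 the log2 fold change was 0.34 ± 0.18, close to the value over all libraries, with a limma-voom adjusted p of 0.476. On the scaled library sizes of limma-voom, high-fat library 1 also lies below control library 2. In CPM, library 3 is the one high-fat library that lies among the controls. Leaving it out therefore separates the CPM values by construction, at means of 320 CPM in high-fat and 247 CPM in control milk. The exact permutation p of 0.0357, not adjusted, is then the smallest that 3 and 5 libraries allow, and nothing is read from it. Without high-fat libraries 1 and 3 the log2 fold change was 0.49 ± 0.22, where limma-voom gave an unadjusted p of 0.0473 and 0.308 after adjustment. Leaving out library 3 again separates the CPM values of the diets by construction. The exact permutation p of the CPM values, 0.0952, is then the smallest that the libraries kept allow. Nothing is read from these p-values. The summed secretory epithelium markers were also used in place of the library total, a scale chosen after the values were seen. On it miR-210-3p averaged 1284 per 1000000 marker counts in high-fat and 1097 in control milk, with an exact permutation p of 0.159. Of these markers, miR-200a-3p and miR-141-3p were higher in every high-fat library than in every control library. miR-200b-3p and miR-200c-3p had log2 fold changes below 0, at -0.06 and -0.26.

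The diet comparison as a whole gave little to set this against. limma-voom called 0 of the 312 names at an adjusted p of 0.05, which is 0%, and 32 names, or 10.3%, had an unadjusted p below 0.05. limma-trend, the other tool run, called 2 names, neither of them an arm of mir-210. miR-210-3p had an unadjusted p of 0.0964 and stood 48th of 312 by p. All 4 high-fat libraries lay above or below all 5 controls for 13 names, or 4.17% of those tested, and neither arm was among them.

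In rank, miR-210-3p held a steady place. It stood 101st, 94th, 108th and 97th in high-fat libraries 1 to 4, of 473 to 570 names detected, and 103rd, 103rd, 105th, 98th and 117th in control libraries 1 to 5, of 432 to 564. Its spread between dams, on scaled library sizes, was an SD of 0.18 log2 CPM in high-fat and 0.26 in control milk. The 20 names nearest to it in level had a median SD of 0.44 in high-fat milk, from 0.047 for miR-15a-5p to 3.56 for miR-223-3p, and of 0.25 in control milk. Among them, 1 of 20 varied less than miR-210-3p between high-fat dams, and 12 of 20 varied less between control dams. The 20 include the leukocyte markers miR-223-3p, miR-142a-5p and miR-146a-5p, from the list whose sum was high in high-fat libraries 1 and 3.

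mmu-miR-210-5p, the passenger arm, was a low-level miRNA, 250th of the 312 tested names in mean log2 CPM. It had 25, 103, 28 and 11 counts in high-fat libraries 1 to 4, against 17, 19, 31, 21 and 11 counts in control libraries 1 to 5. Scaled to library totals these were 10.7, 26.4, 13.8 and 5.77 CPM in high-fat libraries, against 10.1, 15.3, 11.3, 13.1 and 13.1 CPM in control libraries. High-fat library 2 was above and high-fat library 4 below every control library, so the control values lie inside the high-fat range.

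The means were 14.2 ± 8.81 CPM in high-fat milk (SD, n = 4) and 12.6 ± 1.98 CPM in control milk (SD, n = 5), with a log2 fold change of 0.13 ± 0.45 and a limma-voom adjusted p of 0.892. Its 95% interval, from -0.85 to 1.12, leaves room for a change of either sign. The exact two-sided permutation p was 0.730. Without high-fat library 2 the log2 fold change turned to -0.43 ± 0.37, with means of 10.1 CPM in high-fat and 12.6 CPM in control milk, and with limma-trend it was -0.0056. Without high-fat libraries 1 and 3 it was 0.30 ± 0.56, with means of 16.1 CPM in high-fat and 12.6 CPM in control milk and an exact permutation p of 0.571. The SD of log2 CPM of this arm was 0.90 between high-fat dams and 0.26 between control dams, and 257 of the 312 tested names varied less than it did between high-fat dams. Whether the spread differs between diets was not tested.

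The balance of the arms does not depend on how libraries are scaled. The 5p arm made up 3.31%, 7.46%, 5.19% and 1.77% of mir-210 counts in high-fat libraries 1 to 4, against 3.79%, 5.00%, 5.14%, 4.47% and 6.21% in control libraries 1 to 5. Expressed as guide reads per passenger read, the ratio ran from 12.4 to 55.4 in high-fat and from 15.1 to 25.4 in control libraries. The exact Clopper-Pearson 95% intervals of high-fat library 2, 6.13% to 8.98%, and of high-fat library 4, 0.889% to 3.15%, did not overlap. High-fat library 2 combined the highest level of both arms, while high-fat library 4 combined the second highest guide level with the lowest passenger level. These intervals cover counting error only, and PCR copies are not independent molecules.

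The mean share of the 5p arm was 4.43% ± 2.46 in high-fat milk (SD, n = 4) and 4.92% ± 0.895 in control milk (SD, n = 5), a difference of -0.49 percentage points with an exact two-sided permutation p of 0.698, or 0.730 adjusted over the 3 tests. Without high-fat library 4 the difference was 0.395 points, and without high-fat libraries 1 and 3 it was -0.30 points. Over all 9 libraries the 3p arm had 5108 counts and the 5p arm 266, so that the lesser arm held 4.95% of the hairpin. Among 106 hairpins with 1 row for each arm and at least 1000 counts, 75 had a smaller share in their lesser arm and the median share was 1.23%. The next in order were mir-34c below it at 4.92% and mir-140 above it at 5.39%. The 3p arm was the larger one in 44 of these 106 hairpins.

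**Figure D2:**
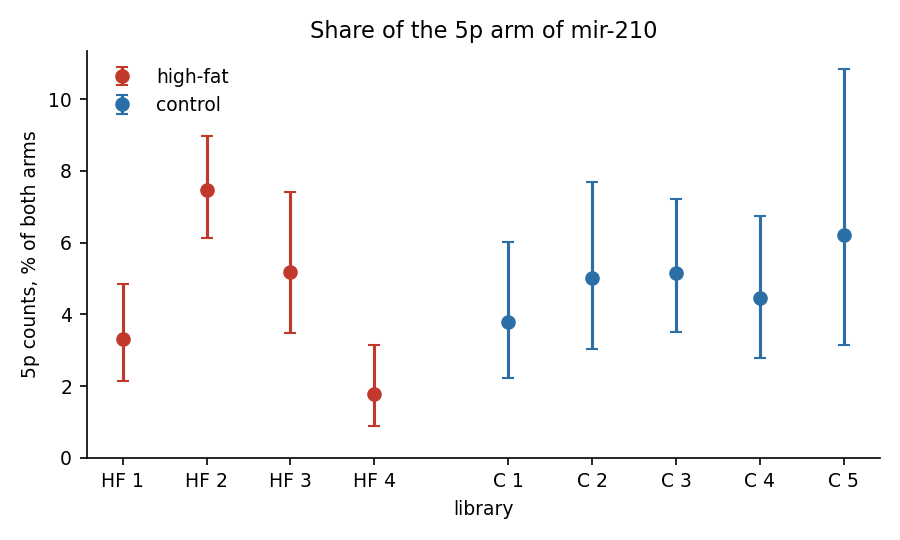
Counts of miR-210-5p as a percentage of the counts of both arms, by library, high-fat (HF) left and control (C) right. Points are libraries and bars are exact 95% Clopper-Pearson intervals; high-fat libraries 2 (7.46%) and 4 (1.77%) lie outside the range of the 5 control libraries, on opposite sides.

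The profile of miR-210-3p over the 9 libraries was compared with those of 302 other tested names, each centred on its own mean log2 CPM and with names of identical counts entered once. A profile with no variation at all would differ from it by a root mean square of 0.25 log2 units, and 24 of the 302 came closer than that. The closest were miR-30e-5p at 0.14, miR-101b-3p at 0.15 and miR-101a-3p at 0.15. miR-322-5p and miR-200a-3p followed, each at 0.17. These share the low values in control libraries 3 and 5. miR-101a-3p and miR-101b-3p are close relatives with nearly the same sequence, so their counts may not be separate.

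The level of these names spans a wide range. miR-30e-5p, a member of the abundant miR-30 family, averaged 21108 CPM in high-fat and 18201 CPM in control milk. miR-322-5p, the mouse counterpart of human miR-424, averaged 235 CPM in high-fat and 187 CPM in control milk, near the level of miR-210-3p. miR-200a-3p, which represses the Zeb factors and keeps cells epithelial, averaged 29911 CPM in high-fat and 25256 CPM in control milk. None of the 5 passed the diet test, with limma-voom adjusted p from 0.442 to 0.777. miR-200a-3p had an unadjusted limma-voom p of 0.0451 and 4 of 4 high-fat libraries above every control library. Over all tested names, 4.17% had 4 of 4 on the same side.

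Of the 6 secretory epithelium markers, 3 came closer to miR-210-3p than a flat profile would: miR-200a-3p, miR-148a-3p at 0.19 and miR-429-3p at 0.20. The other 3 ranged up to 0.49, that of miR-200c-3p. None of the 6 leukocyte markers came that close, and their differences ran from 0.67 to 2.76. The measure is not scaled by spread, so names that vary much more than miR-210-3p lie far from it whatever their pattern. The SD over the 9 libraries was 0.66 for miR-146a-5p and 2.83 for miR-150-5p, the closest and farthest leukocyte markers, and 0.13 for miR-429-3p. The marker lists therefore cannot be compared by it. Of all names, 24 of 302 came closer than a flat profile. The passenger arm of the same hairpin was 193rd of 302, at 0.58. These are descriptions over 9 libraries that share their totals, and no test was made.

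**Figure D3:**
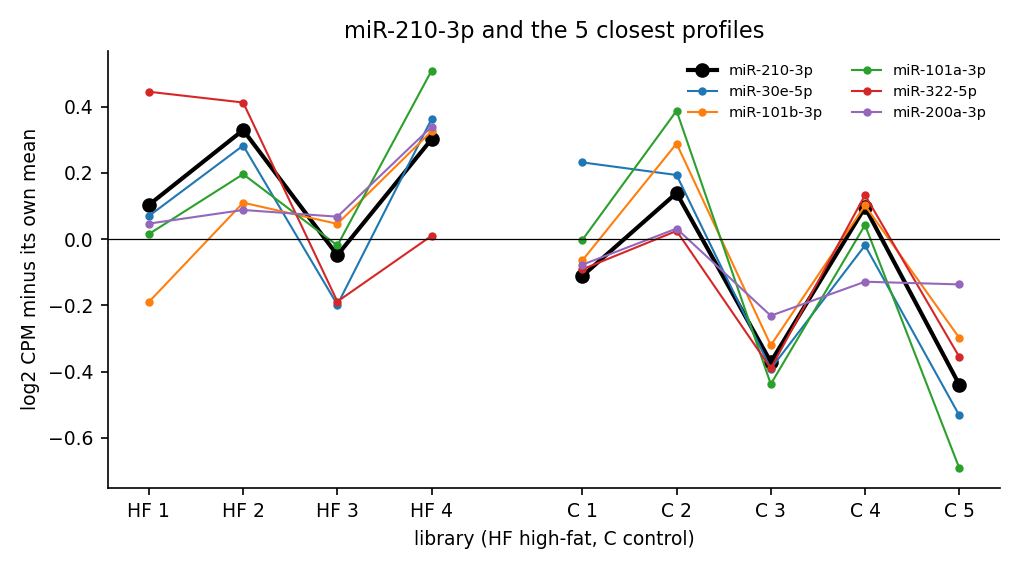
Log2 CPM minus its own mean over the 9 libraries for miR-210-3p (black, thick) and the 5 tested miRNAs with the closest profiles, high-fat libraries (HF) left and control libraries (C) right. Control libraries 3 and 5 are low for all 6 names, and miR-210-3p is 0.33 above its mean in high-fat library 2 and 0.44 below it in control library 5 (-0.44).

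Other miRNAs of the low-oxygen response were read from lists. The lists were chosen with earlier results of these data known. A share of members therefore cannot be set against the share of all names as a test. The first holds 14 names reported to rise in cultured cells under hypoxia, and all 14 were tested. None was called over all names, and 5 had an unadjusted p below 0.05 by limma-voom, 2 of them higher and 3 lower in high-fat milk, beside 10.3% of all tested names. The median log2 fold change of the list was 0.09, against 0.0042 over all 312 names. Over the 16 alternatives the list median ran from -0.06 to 0.20, and it was below 0 only without high-fat library 3. The members did not share a direction, with 9 above 0 and 5 below.

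miR-181c-5p averaged 893 ± 183 CPM in high-fat and 584 ± 30.8 CPM in control milk, at 0.59 ± 0.17 on the log2 scale. miR-26b-5p averaged 9485 ± 724 CPM in high-fat and 7238 ± 1320 CPM in control milk, at 0.41 ± 0.15. Both had 4 of 4 high-fat libraries above every control library, where 4.17% of all tested names had 4 of 4 on the same side. miR-21a-5p, the most abundant member and an oncomir induced in many stress states, averaged 44729 ± 11719 CPM in high-fat and 64991 ± 11017 CPM in control milk, at -0.55 ± 0.17. miR-23a-3p and miR-23b-3p, the near-identical lead members of their clusters with miR-27 and miR-24, had -0.45 ± 0.18 and -0.43 ± 0.17. Each of these 3 had 3 of 4 high-fat libraries below every control library, where 18.6% of all tested names had at least 3 on the same side. The limma-voom adjusted p of the 5 ran from 0.277 to 0.436. miR-322-5p, whose human counterpart is raised by hypoxia in endothelial cells and stabilises HIF-1, had a log2 fold change of 0.32 ± 0.19, close in size to the 0.31 of miR-210-3p.

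The second list holds 6 miRNAs reported to repress the transcript of Hif1a, the oxygen-sensitive subunit of HIF-1, of which 4 were tested. miR-20b-5p and miR-199a-5p were too low to be tested. None of the 4 was called or had an unadjusted p below 0.05, and 2 of their log2 fold changes were above 0 and 2 below, with a median of 0.15. miR-20a-5p, the most abundant, averaged 469 ± 97.5 CPM in high-fat and 562 ± 107 CPM in control milk, a log2 fold change of -0.25 ± 0.18. miR-155-5p, also a leukocyte marker, had the widest interval, with a log2 fold change of 0.60 ± 0.87. Over the 16 alternatives the list median ran from -0.22, without high-fat libraries 1 and 3, to 0.22, without control library 2. It was -0.04 without high-fat library 3 and -0.02 without high-fat library 1.

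**Figure D4:**
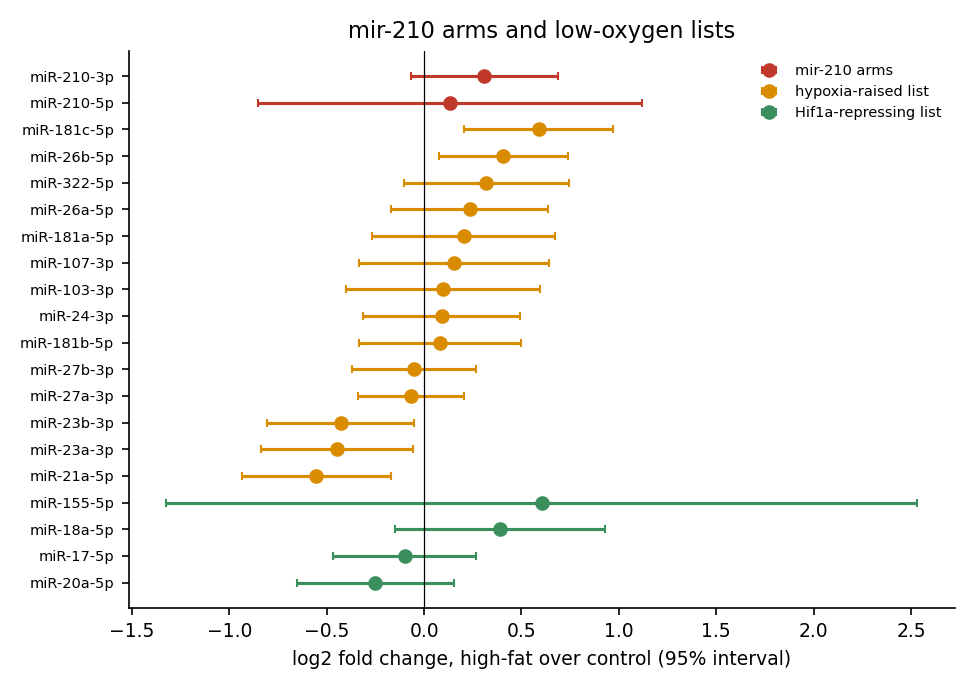
Log2 fold change, high-fat over control, with its 95% interval by limma-voom for both arms of mir-210, the 14 hypoxia-raised miRNAs and the 4 tested Hif1a-repressing miRNAs. The intervals of both mir-210 arms cross 0, and in the hypoxia-raised list 2 unadjusted intervals lie above 0 (miR-181c-5p, miR-26b-5p) and 3 below it (miR-21a-5p, miR-23a-3p, miR-23b-3p).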

How the data were processed

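The deposited table gives read counts per pair of precursor and mature miRNA name, 1 column per dam. The submitters' processing notes name cutadapt 1.9.1 for trimming and GRCm38 as build. Not given in the sources used here were aligner, counting tool, miRBase release and use of the kit's random adapter bases. The authors wrote counts with comma separators in 833 cells. These were removed, the highest row per name and library was kept, and levels were scaled to library totals (837817 to 3897109 counts). Because of the commas the columns could not be registered as plain counts, and limma-voom was the planned test.

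The test took the 312 names that had 15 counts in all and reached 5.25 CPM, which is 10 counts in a library of median size, in 4 or more libraries, leaving out 0.0470% of counts. R 4.3.3 and limma 3.58.1 were used, with trimmed mean of M values factors and Benjamini-Hochberg adjustment; the script was tested on simulated data. Permutation tests covered all 126 regroupings of 4 and 5 libraries, and a two-sided p is the smaller tail doubled. Libraries of 1 diet differed by at least 50.2 chi-square units per degree of freedom, so none was a repeat. A count of 0 would allow 3 counts, or 0.000358% of the smallest library.

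Named miRNAs were both arms, the 5 closest profiles, and list members with an unadjusted p below 0.05 or the highest level. The members and lists were chosen with earlier results of these data known. Alternatives were other scalings, no filter, limma-trend, library quality weights, a replicate block, leaving out libraries and, added after seeing the data, secretory markers as denominator and the arm share without high-fat libraries 2 and 4. Tests of the 3 arm values used Python 3.11.15 and scipy 1.17.1.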

Additional observations from a re-analysis of the deposited data

Results flagged for a closer look

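Of 18 groups of values searched, 3 held 1 library that stood apart within its diet, where a nominal rate of 1 in 20 gives 0.9. The groups come from the same libraries and share their totals, so 3 cannot be set against 0.9 as a test. All 3 were sums of marker miRNAs, and none was a value of mir-210. The erythrocyte markers made up 0.0650% of high-fat library 3, and the striated muscle markers 0.00910% of the same library. The stromal markers, mostly miR-143-3p, made up 2.59% of high-fat library 4, which also had the lowest share of the 5p arm of mir-210. The low value of miR-210-3p in high-fat library 3 came near, with a gap to the next library of 0.802 of the range of its diet, where 0.829 was needed. The part of these cell types in the mir-210 values was not tested.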

How the results depend on the processing

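The log2 fold change of miR-210-3p stayed above 0 and short of the adjusted threshold in all 16 alternatives, from 0.17 to 0.49. Adjusted p ran from 0.308 to 0.828 by limma-voom or limma-trend. miR-210-3p reached 0.49 without high-fat libraries 1 and 3, a choice that separates the diets by construction. Its CPM difference ran from 44.7 to 73.5 when 1 library was left out, highest without high-fat library 3, whose removal separates the diets by construction and so fixes the exact permutation p at its minimum of 0.0357; limma-voom gave an adjusted p of 0.476 there. For miR-210-5p leaving out 1 library gave log2 fold changes from -0.43 to 0.39 and CPM differences from -2.47 to 4.41, negative without high-fat library 2; limma-trend gave -0.0056. The arm share difference ran from -1.50 to 0.395 points, positive without high-fat library 4. The count of called names, 0 in limma-voom as planned, was 4 with no filter, 2 with limma-trend, 2 with library quality weights, and 0 to 4 when 1 library was left out, 4 without control library 5; the cause was not tested. No list member was called in any of the 16 alternatives. The replicate block gave 3 calls and log2 fold changes of 0.23 and 0.16 for the 3p and 5p arms. Whether its numbers pair the dams cannot be settled from 4 pairs. Of these same-numbered pairs, 1 of 4 had a correlation of deviations over 0.1. In turn, 2 of 4 high-fat libraries correlated best with the control of their own number. Depth limits the precision of the passenger arm, which had 11 to 103 counts per library.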
